A study of Mus musculus with 11 samples.

Results

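Aged muscle stem cells (MuSCs) treated with prostaglandin E2 (PGE2) were compared with young MuSCs that received no PGE2, to measure how far the transcriptome of the treated aged cells lay from the young untreated state. The comparison used 6 of the 11 RNA-seq libraries of the series, whose groups their labels give: 3 from cells of 24 month old mice given PGE2 at 10 ng/ml for 24 h, and 3 from untreated cells of mice aged 2 to 4 months. All mice were C57BL/6. MuSCs from hindlimb muscle were purified by flow cytometry as CD45-Sca1-CD31-CD11b-alpha7Integrin+CD34+ cells, and all groups were kept for 24 h on hydrogels in medium with serum before RNA from 5000 to 10000 cells was amplified to cDNA. The 2 untreated aged libraries and the 3 PGE2-treated young libraries were used beside this contrast, because aged PGE2 and young untreated libraries differ both in age and in treatment and the effects of these cannot be told apart within the 6 libraries. No label says whether libraries came from separate mice or cultures, so every p-value measures the spread between these libraries, which may be technical. The study's methods give at least 3 independent experiments or animals per assay, without naming the mouse behind any library. Whether treated and untreated cells were processed together is not given in the sources used here, so batch and treatment cannot be told apart either.

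PGE2 is a lipid signal made from arachidonic acid by cyclooxygenases and PGE synthases. It acts through G protein coupled EP receptors, and the EP2 and EP4 receptors raise cyclic AMP, which activates protein kinase A and the transcription factor CREB. MuSCs are the resident stem cells that rebuild muscle fibers after injury, and PGE2 is known to promote their expansion.

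Total estimated counts were 3356780 to 7198596 in the young untreated and 1760154 to 3216816 in the aged PGE2 libraries. A floor of 3 counts therefore corresponds to 0.417 to 0.894 CPM (counts scaled to a common library size) in the first group and 0.933 to 1.70 CPM in the second, which covers counting error only. All 8 MuSC markers listed (Pax7, Myf5, Cdh15, Itga7, Vcam1, Cd34, Myod1 and Des) had counts in every library, and their summed level was 1115 to 1507 CPM in young untreated and 1041 to 1357 CPM in aged PGE2 libraries. The summed markers of 4 other cell types overlapped between the groups as well, with 4.29 to 15.1 against 3.91 to 14.5 CPM for 8 endothelial genes, 0 to 10.9 against 0.924 to 4.87 CPM for 10 haematopoietic genes, 73.7 to 108 against 59.2 to 119 CPM for 7 mural cell genes and 5.64 to 12.7 against 1.22 to 7.82 CPM for 5 Schwann cell genes. The other 2 sums were lower in every aged PGE2 library, with 116.2 to 137 against 104.6 to 115.8 CPM for 7 fibroadipogenic genes and 32.6 to 35.7 against 22.9 to 28.8 CPM for 5 tenocyte genes, and the part of these cells in the results was not tested. Counts on 4 Y-linked genes were found in replicate 3 of each group (497 in young untreated, 137 in aged PGE2) and in none of the other 4 libraries. Xist stood at 1920 to 2432 CPM in those 4 libraries and at 509 and 1167 CPM in replicate 3 of young untreated and of aged PGE2. The study's reporting summary, however, lists its wild-type mice as male. This disagreement is not resolved by the sources used here, and fits that account for the Y-linked counts are given where they move a count.

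In the treated aged cells 3 genes stood above the young untreated level in edgeR after adjustment over all 10264 genes tested, and none stood below it. The 3 were Odc1, Mmp14 and Dpysl3, which is 0.0292% of the genes tested (edgeR's quasi-likelihood test, Benjamini-Hochberg adjusted p under 0.05). Values credited to edgeR are from this default edgeR fit of the 6 libraries, with TMM scaling and the standard low-count filter, unless another setting is named. Of all genes tested, 644 (6.27%) had an unadjusted p under 0.05 in edgeR, 341 with higher (3.32%) and 303 with lower values (2.95%). The 3 libraries of each group did not overlap for 531 genes that were higher and 723 that were lower in aged PGE2, 5.17% and 7.04% (12.2% in all). The number of calls moved with the model, with 46 genes in DESeq2 (30 higher, 16 lower), 12 in edgeR with the Y-linked level as a covariate and 5 without the 2 libraries that held Y-linked counts. In bulk RNA a lower level can come from fewer cells of a type or from less RNA per cell, and these cannot be told apart.

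**Figure D1:**
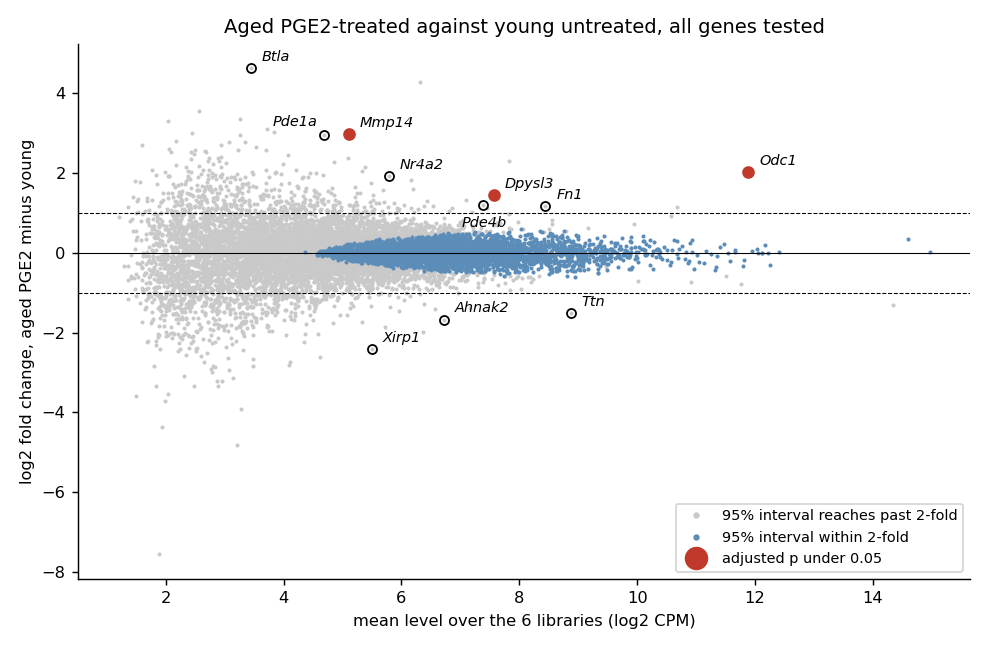
Log2 fold change of aged PGE2 minus young untreated libraries (vertical axis) against the mean level over the 6 libraries in log2 CPM (horizontal axis) for each of the genes tested. Red points passed the adjusted threshold in edgeR, blue points had a 95% interval within 2-fold (dashed lines), and open circles mark other named genes, so that the bounded genes lie at high levels and the 3 calls lie above 0.

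Odc1 (ENSMUSG00000011179, chromosome 12, 17544794 to 17551505 of mm10, plus strand) encodes ornithine decarboxylase, the rate-limiting enzyme of polyamine synthesis. Its level in young untreated replicates 1, 2 and 3 was 1542, 1544 and 1391 CPM, and in aged PGE2 replicates 1, 2 and 3 it was 6618, 6728 and 4545 CPM. Every aged PGE2 library was far above every young untreated library. The means were 1492 ± 87.6 and 5964 ± 1230 CPM (SD, n = 3 each), a log2 fold change of 2.03 (SE 0.17, edgeR adjusted p = 3.41e-05). Odc1 passed when any single library was left out, with log2 fold changes of 1.91 to 2.19. Untreated aged libraries had 1808 and 2319 CPM and PGE2-treated young libraries 4123 to 5263 CPM, so that both treated groups lay above both untreated groups.

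Mmp14 (ENSMUSG00000000957, chromosome 14, 54431612 to 54445364, plus strand) encodes a membrane-anchored matrix metalloproteinase that cleaves collagen at the cell surface. It had 7.53, 10.7 and 5.44 CPM in young untreated and 92.7, 44.7 and 42.6 CPM in aged PGE2 replicates 1, 2 and 3. The groups were well apart, and aged PGE2 replicate 1 was the highest of all libraries. The log2 fold change was 2.97 (SE 0.45, edgeR adjusted p = 0.0311).

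The sequence at or before the start is given for Odc1 and Mmp14, the genes of smallest p in edgeR, and for Nr4a2, a known target of CREB described next. That of Dpysl3, the remaining called gene, is not given. Capitals mark TGACG, the core of the cyclic AMP response element, on either strand (CGTCA on the other). The full palindrome TGACGTCA holds both. Sequences are those of RefSeq for GRCm38.p6, written 5′ to 3′ on the strand of the gene, from 250 bases before the RefSeq start. For Odc1 the gene as given above begins earlier than that start, and the printed stretch of 176 bases ends with the first bases of the gene, which are the core.
Odc1 (chr12:17544623-17544798, plus strand): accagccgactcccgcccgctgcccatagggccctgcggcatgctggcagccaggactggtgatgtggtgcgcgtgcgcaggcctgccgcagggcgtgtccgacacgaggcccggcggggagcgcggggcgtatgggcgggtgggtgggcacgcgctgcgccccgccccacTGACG
Mmp14 (chr14:54431348-54431597, plus strand): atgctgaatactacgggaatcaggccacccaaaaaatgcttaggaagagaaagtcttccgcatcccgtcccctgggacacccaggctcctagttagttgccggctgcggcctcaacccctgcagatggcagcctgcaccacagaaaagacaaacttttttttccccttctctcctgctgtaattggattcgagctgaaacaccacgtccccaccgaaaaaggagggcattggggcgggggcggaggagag
Nr4a2 (chr2:57124004-57124253, minus strand): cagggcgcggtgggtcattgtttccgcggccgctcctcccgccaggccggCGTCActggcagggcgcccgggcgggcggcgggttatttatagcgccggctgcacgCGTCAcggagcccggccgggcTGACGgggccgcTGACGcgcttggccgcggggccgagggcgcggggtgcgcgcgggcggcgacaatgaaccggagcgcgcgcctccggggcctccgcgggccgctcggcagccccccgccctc
Before the RefSeq start the printed sequence held 4 cores for Nr4a2 and 0 for Mmp14. The 1 core of Odc1 lies in the first bases of the annotated gene and not upstream of it. None of the 3 held the full palindrome. Of 32851 windows of this length before annotated starts, 17.8% held the core and 1.55% the palindrome. A match describes the letters only.

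Dpysl3 (ENSMUSG00000024501, chromosome 18, 43320984 to 43438286, minus strand) encodes a cytosolic phosphoprotein of the dihydropyrimidinase family that acts on the cytoskeleton. Young untreated libraries had 103, 93.5 and 110 CPM and aged PGE2 libraries 314, 299 and 203 CPM, with no overlap, for a log2 fold change of 1.44 (SE 0.23, edgeR adjusted p = 0.0311). The calls of Mmp14 and Dpysl3 each depended on 5 of the 6 libraries. They held in edgeR without aged PGE2 replicate 3 (adjusted p = 0.0178 for Mmp14 and 0.0144 for Dpysl3) and were lost when any of the other 5 was left out, with adjusted p up to 0.155 and 0.273, while the log2 fold changes stayed at 2.51 to 3.23 and 1.32 to 1.61. With all groups in 1 edgeR fit Odc1 was the only call.

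Genes that cyclic AMP and CREB are known to induce had several of the most distinct higher values in the treated aged cells, but no gene of this list passed the adjusted test in the default edgeR fit. Nr4a2 and Pde4b passed in DESeq2 and in edgeR with at least 10 counts in every library, and Nr4a2 also after thinning to equal depth. With 1 library left out, Nr4a2 passed in edgeR only without young untreated replicate 3 and Pde4b only without aged PGE2 replicate 3. Their adjusted p in the other such fits was up to 0.478 and 0.455. With all groups in 1 edgeR fit it was 0.279 and 0.481. Of 45 listed genes 37 passed the low-count filter, of which 23 had positive and 14 negative log2 fold changes. In edgeR 11 of these had an unadjusted p under 0.05 with higher values and 0 with lower values, against 3.32% and 2.95% of all genes tested. The median log2 fold change of the 37 was 0.19, against 0.02 over all genes tested. Nr4a2, an orphan nuclear receptor, had 17.5, 14.5 and 36.5 CPM in young untreated and 94.8, 96.0 and 65.7 CPM in aged PGE2 libraries, and the groups did not overlap. Its log2 fold change was 1.92 (SE 0.38, edgeR adjusted p = 0.102). Pde4b, a phosphodiesterase that breaks down cyclic AMP, had 93.3, 101 and 111 CPM against 283, 233 and 168 CPM, also without overlap (log2 fold change 1.19, SE 0.24, edgeR adjusted p = 0.102). Pde4d and Pde8a, which encode other cyclic AMP phosphodiesterases, had log2 fold changes of 1.20 and 1.86, and Pde1a, for a calmodulin-dependent phosphodiesterase that is not in the list, went from 4.54, 5.94 and 7.15 CPM to 26.2, 70.4 and 37.7 CPM (log2 fold change 2.95, edgeR adjusted p = 0.0553). Pde1a passed in DESeq2 and in edgeR with the Y-linked covariate, after thinning and with at least 10 counts in every library, and its adjusted p in edgeR was 0.0261 to 0.352 with 1 library left out, the highest without aged PGE2 replicate 2. For all of these phosphodiesterases the groups did not overlap. Sik1, a kinase that restrains CREB coactivators, had 35.5, 50.8 and 33.2 CPM against 72.7, 104 and 61.6 CPM. Vegfa, the angiogenic growth factor, had 187, 116 and 154 CPM against 260, 276 and 211 CPM. Both were separate between groups, with log2 fold changes of 1.03 and 0.74. The immediate early genes Jun (log2 fold change -0.01, 95% interval -0.51 to 0.48) and Egr1 (-0.41, 95% interval -0.91 to 0.08) were bounded to less than 2-fold, while the interval of Fos was wide (-1.18 to 4.30).

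**Figure D2:**
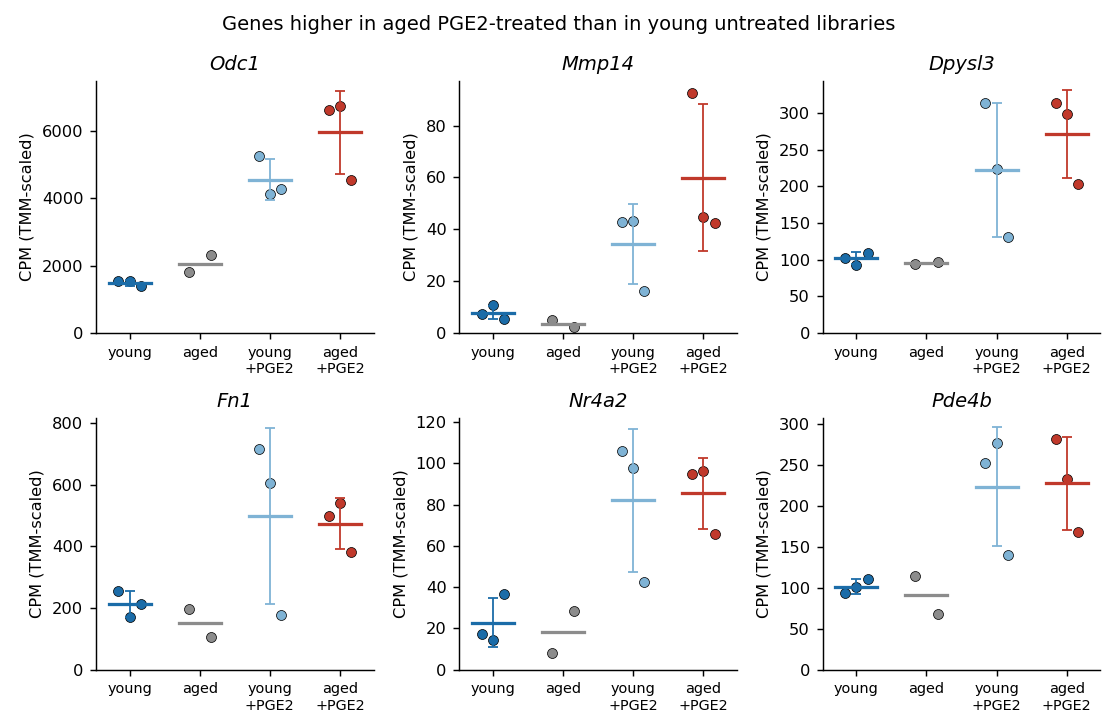
Levels in CPM (vertical axis, from 0) of 6 genes in each library of the 4 groups. Points are libraries, horizontal bars are means and error bars the SD of groups of 3, and for all 6 genes the 3 aged PGE2 libraries lie above the 3 young untreated libraries.

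Genes that make PGE2 or respond to it were described next. Of 15 genes for PGE2 synthesis, receptors, transport and breakdown 10 passed the filter, 3 had an unadjusted p under 0.05 in edgeR with higher values and none with lower values, against 3.32% and 2.95% of all genes. None passed after adjustment in the default edgeR fit, and Ptgs1 passed in DESeq2 and in edgeR without a low-count filter. Ptgs1, which encodes cyclooxygenase 1, had 23.7, 10.4 and 19.3 CPM in young untreated and 53.9, 39.1 and 71.8 CPM in aged PGE2 libraries, a log2 fold change of 1.64 (SE 0.40, edgeR adjusted p = 0.277) without overlap. Ptger4, the gene of the EP4 receptor, had 18.3, 17.8 and 7.87 CPM against 29.9, 55.3 and 18.3 CPM, so that aged PGE2 replicate 3 lay among the young untreated libraries (log2 fold change 1.27, 95% interval 0.17 to 2.36). Exons of Ptgs1 and of Ptger4 overlap other annotated genes, and the counting is not stated to use strand. Ptger2, the gene of the EP2 receptor, was at or under the floor of 3 counts in every library and was not tested. Hpgd, which encodes the enzyme that degrades PGE2, was at or under the floor in all 6 libraries as well.

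Among 12 genes of polyamine metabolism that passed the filter of 18 listed, Odc1 rose and no other gene passed after adjustment in the default edgeR fit or in DESeq2 (0.0292% of all genes tested passed in edgeR). In edgeR 4 of the 12 (33.3%) had an unadjusted p under 0.05 with higher values and 0 with lower values, against 3.32% and 2.95% of all genes, and 3 (25.0%) lay above the young untreated libraries without overlap, against 5.17%. Smox, which encodes spermine oxidase, had 20.3, 23.5 and 23.6 CPM in young untreated and 57.3, 52.5 and 36.9 CPM in aged PGE2 libraries, without overlap (log2 fold change 1.15, SE 0.36, edgeR adjusted p = 0.572). Amd1, for the decarboxylase that supplies the aminopropyl groups of spermidine and spermine, also had separate groups, with 88.3, 83.1 and 67.9 CPM against 149, 102 and 133 CPM (log2 fold change 0.71). Oaz1, for the antizyme that targets ornithine decarboxylase for degradation, overlapped between groups (log2 fold change 0.63). Srm, for spermidine synthase, was bounded to less than 2-fold, with a 95% interval of -0.56 to 0.32. The median over the 12 genes was 0.36. Untreated aged libraries had 112 and 156.5 CPM of Amd1, within or above the range of the treated aged libraries, whereas their Smox level of 16.0 and 27.5 CPM lay around that of the young untreated libraries.

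**Figure D3:**
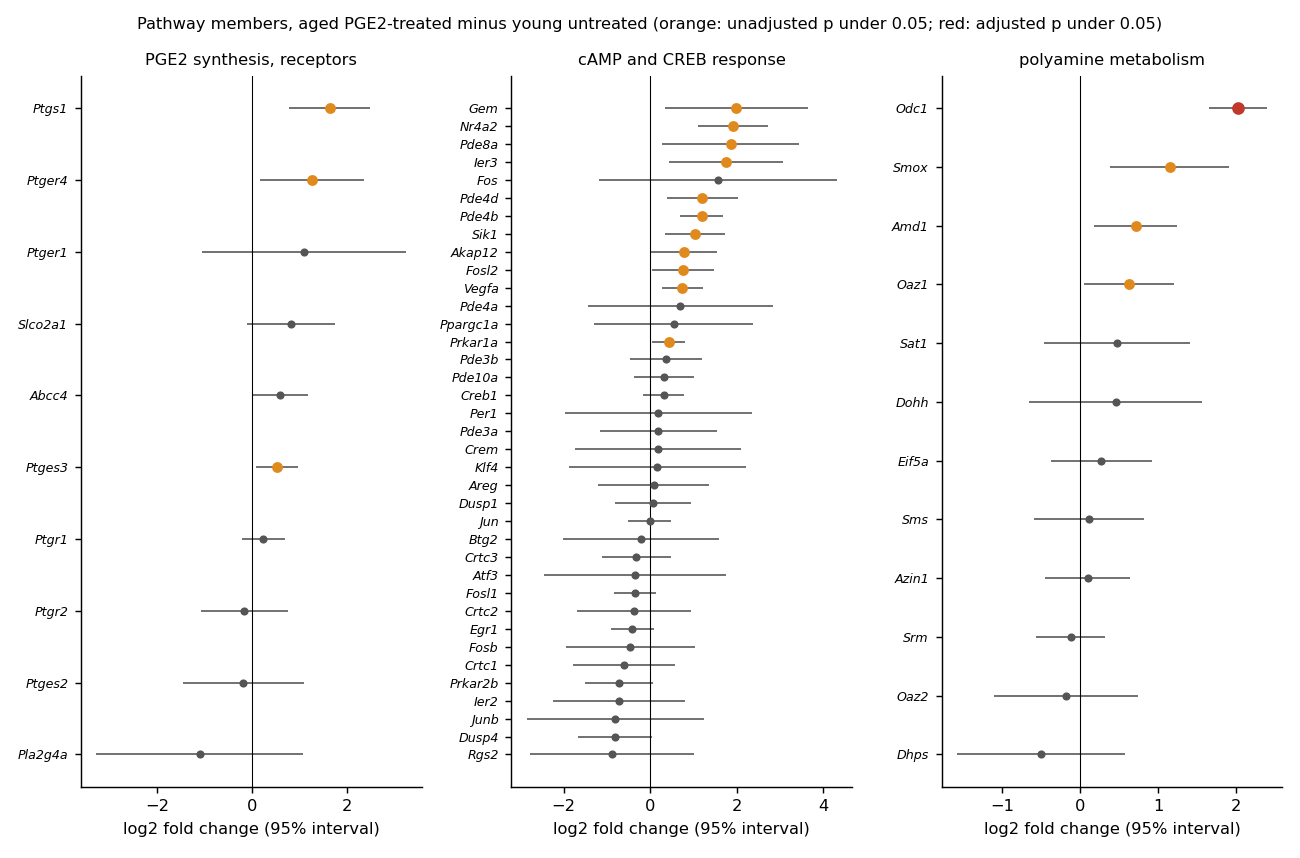
Log2 fold change of aged PGE2 minus young untreated (horizontal axis) with 95% intervals for the tested members of 3 lists, 1 gene per row. Orange marks an unadjusted p under 0.05 and red an adjusted p under 0.05 in edgeR, and Odc1 is the red point.

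Matrix genes went in both directions. Of 61 listed genes 44 passed the filter, and in edgeR 4 higher (9.09%) and 2 lower genes (4.55%) had an unadjusted p under 0.05, against 3.32% and 2.95% of all genes, with a median log2 fold change of -0.03. Besides Mmp14 the higher genes were Fn1, Sparc and Tnc. Fn1, the gene of fibronectin, a ligand of MuSC integrins, had 257, 171 and 213 CPM against 500.0, 540.0 and 383 CPM (log2 fold change 1.18, SE 0.21, edgeR adjusted p = 0.0553). Sparc, which encodes a collagen-binding matricellular protein, had 978, 1202 and 979 CPM against 2144, 2376 and 1390 CPM (log2 fold change 0.93, SE 0.20, edgeR adjusted p = 0.133). Tnc, the gene of tenascin C, had 872, 752 and 615 CPM against 1388, 1282 and 963 CPM. None of these 3 genes overlapped between the groups. None passed after adjustment in the default edgeR fit. DESeq2 called all 3, and Fn1 also passed in limma-voom and in edgeR with the Y-linked covariate, after thinning, with at least 10 counts in every library and without aged PGE2 replicate 3, the last of which Sparc passed as well. With any other library left out neither Fn1 nor Sparc passed in edgeR (adjusted p up to 0.416 and 0.509). With all groups in 1 edgeR fit the adjusted p of Fn1 was 0.865. Spp1, the gene of the secreted phosphoprotein osteopontin, had 1110, 947 and 999 CPM against 2794, 2552 and 1343 CPM (log2 fold change 1.16, edgeR adjusted p = 0.0941), again without overlap. It passed in DESeq2, in limma-voom and in edgeR with the Y-linked covariate, with at least 10 counts in every library and without aged PGE2 replicate 3. Its adjusted p in edgeR was 0.249 to 0.431 with any other library left out and 0.865 with all groups in 1 fit. Fn1, Tnc, Spp1 and Col4a2, like Ttn, Neb, Spry1 and Notch3 below, share exon positions with other annotated genes, which unstranded counting could mix. The 2 lower matrix genes encode basement membrane proteins: Col4a2 had 99.3, 104 and 101 CPM against 74.8, 36.3 and 48.7 CPM, and Lama5 had 47.3, 51.4 and 50.6 CPM against 27.1, 27.4 and 12.6 CPM, with log2 fold changes of -0.90 and -1.13. Itga5, the fibronectin receptor subunit, had a log2 fold change of -0.71 with a 95% interval that ended at 0.

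Among lower genes with separate groups, those of smallest p are given here and further on. None of them passed in the default edgeR fit after adjustment. DESeq2 and edgeR without a low-count filter each called Ttn, Xirp1, Ahnak2, Cavin4, Tns1, Dusp27, Igfbp3, Ccn4, Tiam1 and Arhgap22. Ttn, Xirp1 and Ahnak2 also passed in edgeR with the Y-linked covariate, after thinning and with at least 10 counts in every library. Ttn, which encodes the giant sarcomere protein titin, had 850, 855 and 389 CPM in young untreated and 228, 270 and 217 CPM in aged PGE2 libraries, a log2 fold change of -1.52 (SE 0.26, edgeR adjusted p = 0.0553). The groups did not overlap, and young untreated replicate 3 lay below the other 2. Without that library the adjusted p was 0.000721 in edgeR, but with any other library left out Ttn did not pass (adjusted p 0.129 to 0.273). Xirp1, for an actin-binding protein of muscle attachment sites, had 54.8, 68.6 and 101 CPM against 22.5, 8.93 and 9.33 CPM (log2 fold change -2.41, SE 0.42, edgeR adjusted p = 0.0553), and Ahnak2 had 139, 160 and 180 CPM against 31.7, 72.6 and 44.2 CPM (log2 fold change -1.67, edgeR adjusted p = 0.0682). Both were separate. Cavin4, a muscle caveolae gene, had 41.5, 40.7 and 39.3 CPM against 2.77, 2.79 and 13.8 CPM, and Tns1, the gene of the focal adhesion protein tensin 1, had 126, 139 and 144 CPM against 33.6, 58.1 and 61.2 CPM. In Dusp27, an atypical phosphatase gene of muscle, 117, 49 and 117 counts in young untreated stood against 1, 0 and 3 counts in aged PGE2 libraries, at or under the floor. Dusp27 passed the low-count filter only through the young untreated libraries, so no fold change is given and its calls add no support. The same holds in this comparison for Cavin4 (9, 5 and 34 counts in aged PGE2 libraries) and Tiam1 (5, 11 and 11 counts). Of 33 genes of myogenic differentiation only 11 passed the filter, and 3 of these (Ttn, Tnnt2 and Neb, 27.3%) had an unadjusted p under 0.05 in edgeR with lower values, against 2.95% of all genes. The median of the 11 was -0.38, with 2 positive and 9 negative values. Myog, the gene of the differentiation factor myogenin, was at or under the floor in 5 of the 6 libraries and had 5.44 CPM in young untreated replicate 3.

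**Figure D4:**
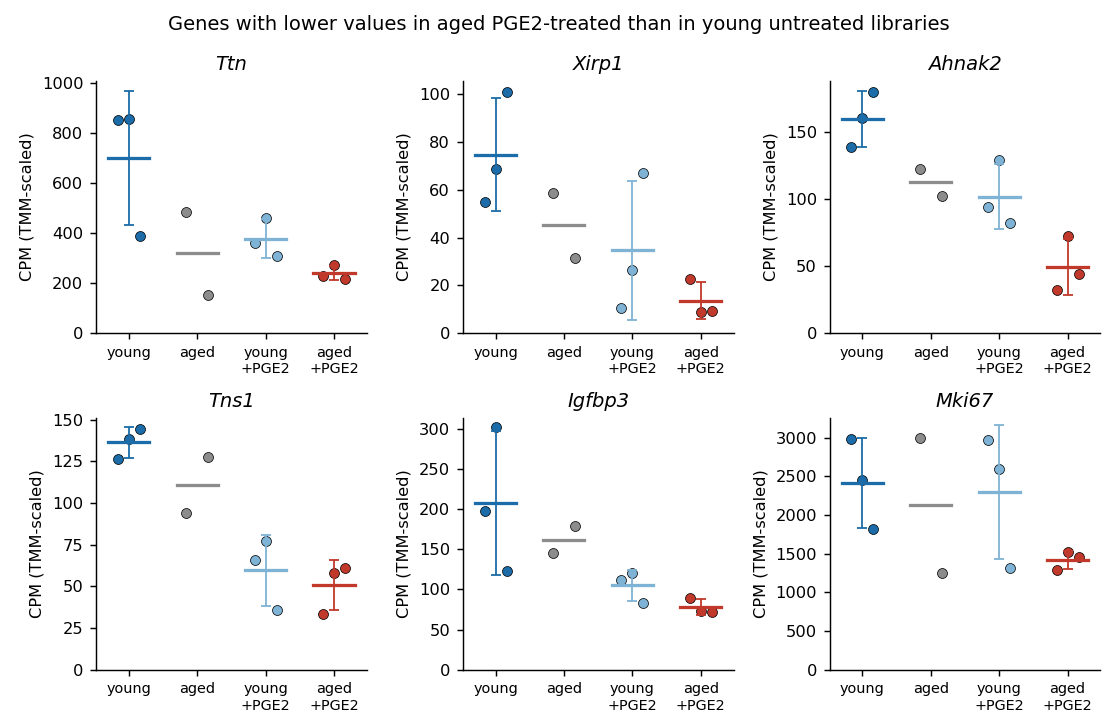
Levels in CPM (vertical axis, from 0) of 6 genes in each library of the 4 groups, with means and, for groups of 3, the SD. All 3 aged PGE2 libraries lie below all 3 young untreated libraries for these genes, and none of the 6 passed the adjusted test in the default edgeR fit, whereas all 6 passed in DESeq2 and in edgeR without a low-count filter.

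Igfbp3, which encodes a binding protein of insulin-like growth factors, had 197, 302 and 123 CPM in young untreated and 89.6, 72.6 and 71.8 CPM in aged PGE2 libraries (log2 fold change -1.38, edgeR adjusted p = 0.125). Ccn4, a matricellular gene known as a Wnt target, had 99.3, 74.8 and 95.7 CPM against 39.1, 21.8 and 34.9 CPM. Btla, which encodes an inhibitory receptor known from lymphocytes, had 5, 5 and 3 counts in young untreated and 115, 33 and 19 counts in aged PGE2 libraries, and its groups were separate. The young counts lie near the floor and the gene passed the low-count filter only through the aged PGE2 libraries, so no fold change is given. The untreated aged libraries held 5.52 and 24.4 CPM of Btla and the treated aged ones 35.4, 18.4 and 7.71 CPM, so that these ranges overlapped. The summed haematopoietic markers were 0.924 to 4.87 CPM in the treated aged libraries, but 25.2 CPM in the untreated aged library with 24.4 CPM of Btla and 4.14 CPM in the other. The part of such cells in the Btla level was not tested. Acsl4, which encodes an enzyme that activates arachidonic acid, had 119, 126 and 86.5 CPM in young untreated and 247, 271 and 193 CPM in aged PGE2 libraries, without overlap (log2 fold change 1.13, edgeR adjusted p = 0.103). It passed in DESeq2 and in edgeR with the Y-linked covariate, with at least 10 counts in every library and without a low-count filter. Acsl4 did not pass in edgeR when any single library was left out (adjusted p 0.0892 to 0.416). With all groups in 1 edgeR fit its adjusted p was 0.865. Tiam1, for an activator of the small GTPase Rac, had 41.0, 25.8 and 18.0 CPM against 1.54, 6.14 and 4.46 CPM. PGE2-treated young libraries had 26.0 to 48.9 CPM of Tiam1 and untreated aged libraries 2.21 and 16.0 CPM, so that for this gene both aged groups lay below both young groups. Arhgap22, for a GTPase-activating protein that acts on Rac, had 49.1, 77.2 and 56.5 CPM against 24.9, 17.3 and 11.8 CPM, and its exons overlap another annotated gene.

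Pax7, Myod1 and Myf5, transcription factors of MuSC identity and commitment, overlapped between the groups. Pax7 had 280, 395 and 187 CPM in young untreated and 265, 284 and 228 CPM in aged PGE2 libraries, fully overlapping (log2 fold change -0.12, 95% interval -0.64 to 0.40). Myod1 (95% interval -0.50 to 0.37) and Myf5 (-0.75 to 0.76) were bounded to less than 2-fold in the same way. Of 23 identity and quiescence genes that passed the filter, 8 had intervals within 2-fold, which is 34.8% and the same share as over all genes tested. In edgeR 2 higher (8.70%) and 3 lower genes (13.0%) had an unadjusted p under 0.05, against 3.32% and 2.95% of all genes. Spry1, an inhibitor of FGF signaling tied to MuSC quiescence, had 13.8, 6.83 and 10.3 CPM against 29.3, 32.4 and 28.0 CPM, without overlap (log2 fold change 1.55, SE 0.49, edgeR adjusted p = 0.572), and the untreated aged libraries had 32.9 and 13.7 CPM. Of 18 Notch genes that passed the filter 10 had positive and 8 negative log2 fold changes, with a median of 0.07. The 2 (11.1%) with an unadjusted p under 0.05 in edgeR, against 6.27% of all genes, were Notch3 and Jag2, both lower. Jag2 had a log2 fold change of -1.69. Notch3 had 61, 44 and 79 counts in young untreated and 17, 2 and 6 counts in aged PGE2 libraries. It passed the low-count filter only through the young untreated libraries, so no fold change is given and counting it adds no support. The Notch effector Rbpj was bounded (95% interval -0.39 to 0.41).

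Proliferation and energy genes were the best bounded groups. All 40 listed cell cycle genes passed the filter, 32 had a 95% interval within 2-fold and the median log2 fold change was 0.04. In edgeR 2 higher (5%) and 1 lower gene (2.5%) had an unadjusted p under 0.05, against 3.32% and 2.95% of all genes, and 5 (12.5%) lay below the young untreated libraries without overlap, against 7.04%. Mki67, the proliferation marker, was the lower gene and had 2978, 2454 and 1814 CPM in young untreated and 1289, 1522 and 1452 CPM in aged PGE2 libraries, without overlap (log2 fold change -0.73, SE 0.18, edgeR adjusted p = 0.286), and it passed in DESeq2 and in edgeR without a low-count filter. Mki67 did not pass in edgeR when any single library was left out (adjusted p 0.0858 to 0.939). Untreated aged libraries had 2999 and 1251 CPM of Mki67 and PGE2-treated young libraries 2971, 2597 and 1319 CPM. The higher genes were Ccnd2 and Ccnd3, which encode D-type cyclins and share exon positions with other annotated genes. Ccnd2 overlapped between the groups, with 13.8, 17.2 and 42.5 CPM against 82.5, 94.9 and 20.3 CPM (log2 fold change 1.44, SE 0.52, edgeR adjusted p = 0.628), and Ccnd3 did not (log2 fold change 0.74). Top2a (95% interval -0.55 to 0.32), Pcna (-0.38 to 0.45) and Ccnd1 (-0.42 to 0.30) stayed within 2-fold. Of 33 genes of oxidative phosphorylation 23 were within 2-fold, none had an unadjusted p under 0.05 in edgeR, against 6.27% of all genes, and the median was 0.03. Such shares follow the level of the genes: over all genes tested 34.8% had an interval within 2-fold, and in 4 groups of 2566 genes ordered by level it was 0%, 3.31%, 47.0% and 88.9%. For most genes below about the middle level the data therefore could not show a difference or bound it to 2-fold, and a p that misses the threshold does not show likeness there.

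Hedgehog and cilium genes, which the study followed in untreated cells, were counted in the same way. Of 22 Hedgehog genes that passed the filter 7 (31.8%) were bounded within 2-fold, near the 34.8% of all genes, and 1 (4.55%) had an unadjusted p under 0.05 in edgeR, with higher values, against 3.32% of all genes. This was Gli2, the transcription factor of the pathway, with 6.39, 15.4 and 11.7 CPM in young untreated and 21.2, 37.4 and 18.7 CPM in aged PGE2 libraries, without overlap (log2 fold change 1.23, SE 0.54, edgeR adjusted p = 0.791). The untreated aged libraries had 1.93 and 0 CPM of Gli2, and PGE2-treated young libraries 6.58 to 10.9 CPM. Ptch1, the Hedgehog receptor and target gene, had 30.8, 26.7 and 25.8 CPM against 27.1, 15.1 and 24.7 CPM, with overlap (log2 fold change -0.28, 95% interval -1.18 to 0.62). Its level in the untreated aged libraries was 53.6 and 45.8 CPM, above every young untreated and every aged PGE2 library. PGE2-treated young libraries had 28.1, 48.0 and 5.47 CPM of Ptch1, which overlapped the untreated aged range. Aged PGE2 against untreated aged libraries gave a log2 fold change of -1.16 for Ptch1 (SE 0.50, edgeR adjusted p = 0.999). Gli1 did not pass the filter. Of 50 cilium genes that passed it, 1 higher (2.00%) and 2 lower genes (4.00%) had an unadjusted p under 0.05 in edgeR, near the 3.32% and 2.95% of all genes. Only 7 (14.0%) were bounded within 2-fold, against 34.8% of all genes, with a median log2 fold change of -0.14. Dzip1l, for a protein of the ciliary base, had 26.4, 39.2 and 29.0 CPM against 9.24, 21.8 and 7.71 CPM, without overlap (log2 fold change -1.27, edgeR adjusted p = 0.749), and the untreated aged libraries had 12.2 and 9.16 CPM, within the range of the treated ones. Kif3a, Ift122 and Stil overlapped between the groups.

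Age and PGE2 were also fitted as terms over all 11 libraries. These include the 6 libraries on which the 3 genes were called, so their terms are not independent of that call, and batch and the PGE2 term cannot be told apart. The PGE2 term was 1.58, 2.85 and 1.30 on the log2 scale for Odc1, Mmp14 and Dpysl3 (edgeR adjusted p = 1.51e-05, 0.00909 and 0.0195), while their age terms were 0.42, 0.13 and 0.11 (adjusted p = 0.656, 0.989 and 0.983). The PGE2 term passed for 9 genes (0.0713% of 12619 tested, with 4.92% at an unadjusted p under 0.05), all higher: these 3 with Vegfa, Nr4a2, Pde4b, Sparc, Sik1 and Fn1. Of these, Odc1 and Vegfa passed with any single library left out. The calls numbered 3 (Odc1, Vegfa and Mmp14) without any 1 of aged PGE2 replicates 1 and 2, young untreated replicates 1 and 2 and young PGE2 replicate 2, 4 without untreated aged replicate 2, and 2 (Odc1 and Vegfa) without 1 of the young PGE2 libraries that carry no replicate number. No gene passed for the age term in edgeR, where 813 (6.44%) had an unadjusted p under 0.05 and DESeq2 called 13. For the lower genes named above neither term passed in edgeR with the standard filter and all libraries, whereas DESeq2 called Tns1, Igfbp3 and Ccn4 for the PGE2 term and Tiam1 for the age term. Ttn had an age term of -0.87 and a PGE2 term of -0.68, Xirp1 had -0.99 and -1.42, and Tns1 had -0.28 and -1.15. The interaction of age and PGE2 passed for 0 genes in edgeR, with 747 (5.92%) at an unadjusted p under 0.05.

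The distance of the aged libraries from the young untreated ones was compared with and without treatment, in a design too small for the permutation test to reach a p under 0.05. Untreated aged against young libraries gave 0 calls in edgeR (560 of 11181 genes, 5.01%, at an unadjusted p under 0.05, 7 calls in DESeq2), and aged PGE2 against untreated aged libraries gave 0 calls as well (496 of 10280, 4.82%, and 13 in DESeq2). These comparisons share libraries with the main one and with each other. The distance between 2 libraries was taken as the root mean square difference of log2 CPM over 11584 genes. It averaged 1.19 from aged PGE2 to young untreated libraries and 1.22 from untreated aged to young untreated libraries. The difference of -0.03 had p = 0.7 in an exact two-sided permutation test over the 10 ways to label the 5 aged libraries, whose smallest possible p is 0.1. It was -0.128 without untreated aged replicate 1 and turned to 0.0488 without replicate 2, so its direction was not settled. Young untreated libraries lay 0.991 apart on average and aged PGE2 libraries 1.32 apart, so that the treated aged libraries were on average farther from each other than from the young ones. The mean distance between the groups exceeded that within them by 0.0315 (exact permutation p = 0.1 over 10 splits, the smallest possible). Without young untreated replicate 1, 2 or 3 this excess was -0.0287, -0.0810 and -0.0465, where 1 young pair is pooled with 3 aged PGE2 pairs. With both groups weighted equally it was 0.0146 to 0.0501 when a library was left out. With all 8 libraries thinned to 1276899 counts each the distances were 0.934, 0.955, 0.808 and 1.01 in the same order.

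**Figure D5:**
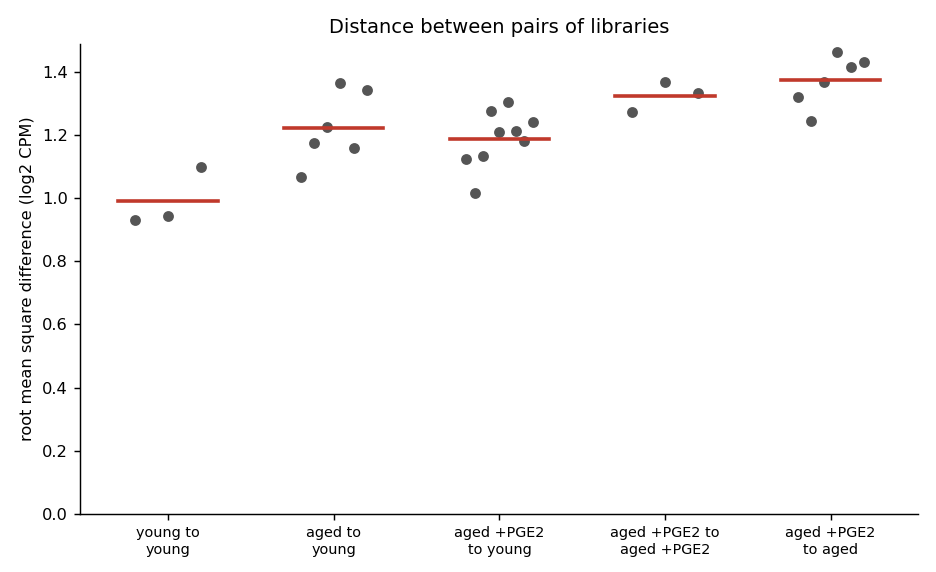
Root mean square difference of log2 CPM (vertical axis, from 0) for every pair of libraries of the kinds named on the horizontal axis, with red bars for the means. Pairs of aged PGE2 and young untreated libraries (mean 1.19) lie between pairs of young untreated libraries (mean 0.991) and pairs of aged PGE2 libraries (mean 1.32).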

How the data were processed

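The sample labels put RNA-seq libraries of MuSCs in 4 groups: young untreated (3), aged untreated (2), young PGE2 (3) and aged PGE2 (3). The authors deposited estimated counts for 32976 genes, without normalization. Per the labels and methods, STAR was the aligner, mm10 the genome and RSEM or Salmon the source of the estimates, and which of these it was, the annotation and the strandedness are not given in the sources used here. Estimates (4.64% not whole) were rounded. The RNA was amplified as cDNA without molecular identifiers, so reads are not independent molecules. A column name occurs 2 times among the young PGE2 libraries, and both columns were used without a replicate number. GENCODE M21 gave symbols and positions for 31980 identifiers.

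The 6 libraries were fitted in edgeR 4.0.16 (R 4.3.3) by the quasi-likelihood method. Scaling was by TMM. Genes were kept by edgeR's own filter at 10 counts, with 15 in total. P-values were adjusted by Benjamini-Hochberg over all genes tested, at 0.05. The SE is the absolute log2 fold change over the square root of F, and a gene was bounded within 2-fold when its whole 95% interval was. CPM were TMM-scaled over 11 libraries, and distances used log2 CPM with a prior count of 2. Libraries of 1 group differed by more than sampling noise (chi-square per degree of freedom 18.3 to 54.3). On simulated counts the code called 57 of 66 genes changed 8-fold, 49 of 68 changed 4-fold, 12 of 56 changed 2-fold and 2 of 9723 unchanged ones. The simulated spread followed the trend over level, without differences between genes of the same level. These rates may therefore not hold for the real libraries.

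Libraries, gene lists and tests were chosen with earlier results of these data known. Named genes are the 10 higher and 10 lower protein-coding genes with separate groups that passed, filled up by smallest p, the 2 leading members of each list and 2 lists of genes from earlier results. Other list members are examples chosen after their values were seen. Alternatives were DESeq2 1.42.0 (the study used DESeq), limma 3.58.1, other scalings, filters and depths, covariates for Y-linked and olfactory receptor reads, all groups in 1 fit, a block by replicate number and leaving out libraries.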

Additional observations from a re-analysis of the deposited data

Results flagged for a closer look

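In 4 named genes every treated aged library lay above the young untreated range while every untreated aged library lay below it. Against young untreated libraries the log2 fold changes of aged PGE2 were 2.97 for Mmp14, 1.23 for Gli2, 0.74 for Vegfa and 0.93 for Sparc, and those of untreated aged libraries were -1.05, -3.21, -0.68 and -0.32. Because the genes were picked for lying on opposite sides, the sign of the difference between treated and untreated aged libraries was fixed by the choice, and its values are a description. The log2 fold change of aged PGE2 against untreated aged libraries was 3.92 (SE 0.66) for Mmp14, 4.36 (SE 1.04) for Gli2, 1.40 (SE 0.31) for Vegfa and 1.23 (SE 0.27) for Sparc. Over all genes none of the 4 passed in this comparison in edgeR (adjusted p = 0.128, 0.7, 0.538 and 0.538), whereas DESeq2, and edgeR without a low-count filter, listed all 4, which adds no support given the choice. The Mmp14 value rests on 18 and 3 counts in the untreated aged libraries, the second at the floor. The Gli2 value rests on 1.93 and 0 CPM in the untreated aged libraries and depends on the prior count of the fit. Its interaction of age and PGE2 was 4.59 on the log2 scale, with an adjusted p of 0.639 in edgeR over all 11 libraries (unadjusted p = 0.000578). The 4 genes were picked out among genes already named with results of these data known, and 3 of them (Mmp14, Vegfa and Sparc) belong to a list chosen on these libraries.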

How the results depend on the processing

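The number of genes called between aged PGE2 and young untreated libraries (3) was 46 in DESeq2, 63 without a low-count filter, 15 with at least 10 counts in every library, 12 with the Y-linked covariate, 10 at an adjusted p under 0.1, 10 after thinning, 6 in limma-voom, 6 with the olfactory receptor covariate, 5 with upper-quartile scaling, 5 without the 2 libraries with Y-linked reads, 3 with RLE scaling and 1 with all groups in 1 fit. Leaving out each library gave 1 to 9 calls. Odc1 was among the calls of every alternative, with log2 fold changes of 1.91 to 2.19. With the replicate number as a block 10 genes passed here, 0 between untreated aged and young and 1 between aged PGE2 and untreated aged libraries, but same-numbered libraries did not deviate together (correlations -0.04, 0.04 and 0.03), so the numbers were not taken to pair them. The count of genes bounded within 2-fold (3571) stayed between 2576 and 3812 over the edgeR alternatives and limma-voom, which was added for this count after the data were seen. Untreated aged against young libraries gave 7 calls in DESeq2, 17 without a filter and 0 to 6 with a library left out. Aged PGE2 against untreated aged gave 13, 31 and 0 to 23, the age term 13, 33 and 0 to 3, and the PGE2 term 24, 40 and 2 to 10. The distance difference was -0.128 to 0.0488 with a library left out, reversed at 0.0488 without untreated aged replicate 2. The excess of between-group over within-group distance was -0.0810 to 0.134, and it was -0.0287, -0.0810 and -0.0465 without young untreated replicates 1, 2 and 3, where the within-group mean pools 1 young pair with 3 wider aged PGE2 pairs. With both groups weighted equally, an alternative added after the data were seen, the excess was 0.0315, and 0.0146 to 0.0501 with a library left out. Over 55 named genes and 982 values, 875 kept direction and side of the threshold, 93 passed newly, 13 were lost and the sign of Igf2, never called, changed once. The cause of these moves was not tested. Depth limits what can be said of genes near 3 counts.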

Other observations

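Of 34 stress and proteostasis genes that passed the filter 16 (47.1%) had an interval within 2-fold, against 34.8% of all genes tested. The smallest p in that list was that of Sod2, which encodes the mitochondrial superoxide dismutase, with 131, 109 and 98.6 CPM in young untreated and 197, 174 and 162 CPM in aged PGE2 libraries, without overlap (log2 fold change 0.69, edgeR adjusted p = 0.572). B2m, the light chain of class I antigen-presenting molecules, had 125, 156 and 129 CPM against 92.1, 79.3 and 69.8 CPM, also without overlap (log2 fold change -0.74), and untreated aged libraries had 169 and 106 CPM. H2-D1, a heavy chain of these molecules, had a log2 fold change of -0.02 with a 95% interval of -0.72 to 0.68.

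Of 37 inflammatory and secretory genes only 14 passed the filter, with 7 positive and 7 negative log2 fold changes and none at an unadjusted p under 0.05 in edgeR, against 6.27% of all genes tested. In the TGF-beta, BMP and Wnt list 15 of 29 tested genes (51.7%) were within 2-fold. Tgfbr3, a coreceptor of TGF-beta, had 21.0, 29.7 and 25.2 CPM against 62.8, 45.8 and 40.6 CPM, without overlap, and the untreated aged libraries had 39.8 and 57.3 CPM. Lef1, a transcription factor of Wnt signaling, had 22.3, 10.98 and 20.3 CPM against 0, 2.23 and 5.27 CPM, and its groups did not overlap. Lef1 passed the low-count filter only through the young untreated libraries, so no fold change is given. Tgfbr3 and Lef1 share exon positions with other annotated genes. Acta2, the gene of smooth muscle actin and a mural marker, had 23.4, 28.5 and 24.6 CPM against 59.1, 50.3 and 73.8 CPM, whereas Notch3, of the same marker list, was lower.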
